A study of Homo sapiens with 96 samples.

Results

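The replication-dependent H2A, H2B and H3 genes were taken as every protein-coding gene whose name starts with HIST1H2A, HIST1H2B, HIST1H3, HIST2H2A, HIST2H2B, HIST2H3 or HIST3H2 and that was listed in all 10 deposited expression tables. Of 13469 genes listed in all 10 tables, 34 met this rule: 11 H2A, 15 H2B and 8 H3 genes. Another 5 names matched but stood in only some tables: HIST1H2AM, HIST1H2BH, HIST1H2BI, HIST1H3G and HIST2H3C. Beyond names and gene type the rule used only the listing, which differed between tables (14746 to 22295 genes). Whether listing depended on the level of a gene was not tested.

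Replication-dependent histone genes supply the core histones that package newly made DNA, and their RNA is abundant in S phase and scarce outside it. H2A and H2B join as dimers, and H3 pairs with H4. Their transcription depends on the coactivator NPAT, with the octamer factor OCT1 acting on H2B promoters, and their mRNAs end in a stem-loop bound by SLBP in place of a poly(A) tail. Many H2A and H2B genes stand head to head and share the promoter between them.

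All samples came from hTERT-RPE1, a telomerase-immortalised cell line derived from the human retinal pigment epithelium. Nascent and input RNA of whole cells and of nuclei was sequenced in 2 libraries each of asynchronous cells and of the windows T0-2, T2-4, T4-6, T6-8 and T8-10 after synchronisation with mimosine (400 uM for 22 h), a plant amino acid that holds cells at the start of S phase. In a second experiment, cells were transfected with locked nucleic acid gapmers (130 to 150 pmol), antisense oligonucleotides that direct cleavage of an RNA. The gapmers were a control or ones against the long noncoding RNAs LINC00704 (listed as MANCR), LUCAT1 or MIAT. Synchronised transfected cells were sampled at S0, S2, S4 and S6 (2 libraries per gapmer and point), and asynchronous transfected cells gave 2 control and 3 libraries per knockdown. The sources used here give neither the unit of the T and S numbers nor the way nascent RNA was separated. The labels do not say whether libraries of a group came from separate cultures, so every p-value measures the spread between these libraries only.

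Library depth recovered from the values was 6.39 to 28.6 Mreads (mega-reads) in the whole-cell and nuclear tables, 9.11 to 23.4 Mreads in the synchronised knockdown tables and 26.4 to 50.5 Mreads in the asynchronous ones. Most retinal pigment epithelium markers were low: RPE65, the visual-cycle isomerase, was listed in 3 tables at up to 0.22 RPKM and BEST1, a chloride channel, reached 0.82. Of the 9 markers looked at, OTX2 and MITF reached the highest values, 3.77 and 1.72 RPKM. KRT18, an epithelial keratin, was at 4.63 to 72.6 RPKM and VIM, vimentin, at 53.3 to 474. Each target was lower in every knockdown library than in every control library of its table. LINC00704 was at 1.89 to 4.04 RPKM in synchronised controls and 0.55 to 1.61 after its knockdown. LUCAT1 went from 0.44-0.99 to 0.13-0.38 RPKM and MIAT from 0.24-0.32 to 0.07-0.22. LINC00704 knockdown libraries stood apart at 2 points, and whether the points on their labels are right could not be settled from the sources used here. The LINC00704 knockdown S4 replicate 1 library had a median of 9.15 RPKM over the 34 histone genes, near the S0 controls (8.73 and 14.1). One LINC00704 knockdown S2 library was at 52.0, against 14.8 and 23.0 in the S2 controls. In the whole-cell nascent T0-2 replicate 2 library, HBB, a haemoglobin gene, was at 72.4 RPKM against at most 6.01 elsewhere, and HIST1H3J was at 110.0 RPKM there against at most 8.97 in the other whole-cell nascent libraries.

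Promoters of some members named in the results below are printed: those of head-to-head H2A and H2B pairs, of HIST2H2AB and of HIST1H3H. From S0 to S6 in control cells the pair HIST3H2A and HIST3H2BB moved less than the other printed pairs (log2 differences of 1.74 and 2.18). RefSeq (GRCh38.p14) gave a single promoter for 26 of the 34 genes. The letters searched on both strands were ATTTGCAT (the octamer), CCAAT and TATAAA, each counted separately whether or not matches overlapped. The octamer was in 8 of 10 H2A, 10 of 13 H2B and 0 of 3 H3 promoters, and in 1.77% of all 35116 RefSeq promoters. CCAAT was in 26 of 26 promoters of these genes, against 34.6% of all. TATAAA was in 20 of 26, against 11.5% of all. Genes of a head-to-head pair share the stretch between their starts, so its matches were counted for both the H2A and the H2B gene. These promoters are therefore not all separate sequences. In the sequences, 5′ to 3′, capitals mark matches to these motifs or their reverse complements. The first 3 are the stretches between the starts of a head-to-head pair, read on the plus strand: chr6:26216689-26216920, chr6:26199294-26199515 and chr1:228457874-228458102. The last 2 are the 250 bases before the start of HIST2H2AB (chr1:149887966-149888215, minus strand) and of HIST1H3H (chr6:27809801-27810050, plus strand).
HIST1H2BG and HIST1H2AE: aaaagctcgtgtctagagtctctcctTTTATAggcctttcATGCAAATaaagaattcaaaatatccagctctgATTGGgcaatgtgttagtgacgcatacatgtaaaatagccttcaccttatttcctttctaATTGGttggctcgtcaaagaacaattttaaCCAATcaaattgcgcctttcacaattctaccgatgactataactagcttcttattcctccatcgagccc
HIST1H2AD and HIST1H2BF: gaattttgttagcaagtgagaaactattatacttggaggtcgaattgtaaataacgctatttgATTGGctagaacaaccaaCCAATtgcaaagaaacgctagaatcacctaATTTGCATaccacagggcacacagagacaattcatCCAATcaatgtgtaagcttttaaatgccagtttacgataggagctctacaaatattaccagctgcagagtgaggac
HIST3H2A and HIST3H2BB: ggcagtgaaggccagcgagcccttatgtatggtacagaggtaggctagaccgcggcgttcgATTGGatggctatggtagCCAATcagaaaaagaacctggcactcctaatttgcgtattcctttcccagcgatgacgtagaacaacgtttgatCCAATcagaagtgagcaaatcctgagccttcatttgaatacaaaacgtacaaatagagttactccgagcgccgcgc
HIST2H2AB: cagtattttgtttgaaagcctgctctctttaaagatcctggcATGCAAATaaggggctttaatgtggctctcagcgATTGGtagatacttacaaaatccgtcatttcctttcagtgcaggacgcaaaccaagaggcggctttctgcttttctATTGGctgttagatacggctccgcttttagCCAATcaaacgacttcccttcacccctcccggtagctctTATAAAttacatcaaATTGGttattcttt
HIST1H3H: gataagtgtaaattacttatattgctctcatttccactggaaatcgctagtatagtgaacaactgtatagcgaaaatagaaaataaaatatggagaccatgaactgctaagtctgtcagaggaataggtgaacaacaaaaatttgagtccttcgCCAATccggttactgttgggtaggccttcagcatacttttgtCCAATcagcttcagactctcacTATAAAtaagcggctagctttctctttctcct
The HIST1H2BG and HIST1H2AE stretch holds 1 octamer, 3 CCAAT and 1 TATAAA match, and that of HIST1H2AD and HIST1H2BF holds 1 octamer and 3 CCAAT matches. The stretch of HIST3H2A and HIST3H2BB holds 3 CCAAT matches and neither of the other motifs. HIST2H2AB has 1 octamer, 4 CCAAT and 1 TATAAA match, and HIST1H3H has 2 CCAAT and 1 TATAAA match. A motif match is a description of the letters and was not tested against any measured value.

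Levels are RPKM, reads per kilobase of gene model scaled to a library size, and so compare genes per length. In the asynchronous tables that size was not the sum of the reads. LUCAT1 table controls of 42.2 and 27.3 Mreads had sizes of 38.6 and 24.3. Its knockdown libraries of 26.4, 30.0 and 35.4 Mreads had sizes of 27.1, 31.5 and 41.2. In the LUCAT1 and MIAT tables this scaling raised control values and lowered knockdown values. Its part in the histone differences there was not tested. The gene models behind them were mostly short: 23 of 34 were under 1000 bp, with a median of 393 bp for H2A, 627 bp for H2B and 411 bp for H3. A model such as that of HIST2H2BE (44449 bp), HIST2H2BF (29685 bp) or HIST1H2BN (28039 bp) spreads the reads of a short histone mRNA over a long gene, so a low RPKM there does not compare with that of a short model. Several of these genes are near-identical in sequence, and how the authors' counting divided reads between copies is not given, which leaves each single-gene value uncertain. HIST1H3B and HIST1H3C, genes for the canonical H3, had the highest and second highest mean RPKM of the H3 class in all 10 tables. HIST1H2AE or HIST1H2AH led the H2A class in the 4 fraction tables and HIST2H2AC in the 3 asynchronous knockdown tables. Among H2B genes HIST1H2BO led in 6 tables, HIST1H2BK in the 3 asynchronous ones and HIST1H2BG in nuclear nascent RNA.

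In nuclear input RNA, the RNA of the nuclear fraction before nascent RNA was separated, histone levels rose from the first window to the middle ones in all 3 classes. Nuclear HIST1H2AE, a canonical H2A gene, was at 27.1 and 26.5 RPKM at T0-2, 93.1 and 135 at T2-4, 274 and 274 at T4-6, 244 and 259 at T6-8, and 218 and 184 at T8-10, with 107 and 58.6 in asynchronous cells. HIST1H2AH, another H2A gene, was at 53.9 and 62.8 RPKM at T0-2, 124 and 208 at T2-4, 344 and 377 at T4-6, 296 and 324 at T6-8, and 182 and 205 at T8-10, with 151 and 132 in asynchronous cells. For both genes the 2 T0-2 libraries were the lowest of the 12, and T4-6 held the highest.
HIST1H2BG, the H2B gene paired with HIST1H2AE, was at 20.1 and 9.37 RPKM at T0-2, 73.9 and 62.1 at T2-4, 249.8 and 126 at T4-6, 111 and 108 at T6-8, and 93.1 and 70.4 at T8-10, with 43.5 and 22.9 in asynchronous cells. HIST1H2BM, an H2B gene with a low level, was at 0.73 and 0.53 RPKM at T0-2, 5.23 and 6.06 at T2-4, 15.2 and 9.50 at T4-6, 7.21 and 8.17 at T6-8, and 4.09 and 7.49 at T8-10, with 2.77 and 3.51 in asynchronous cells. In both genes every T4-6 library was above every T0-2 and asynchronous library, and the 2 T4-6 libraries differed more from each other than those of the H2A genes. HIST1H3H was at 19.0 and 12.2 RPKM at T0-2, 48.9 and 50.5 at T2-4, 161 and 131 at T4-6, 118 and 132 at T6-8, and 114 and 94.9 at T8-10, with 64.0 and 52.2 in asynchronous cells. HIST1H3B was at 137 and 99.7 RPKM at T0-2, 206 and 239 at T2-4, 553 and 393 at T4-6, 301 and 383 at T6-8, and 347 and 333 at T8-10, with 164 and 148 in asynchronous cells. HIST1H3C was at 46.7 and 48.1 RPKM at T0-2, 118 and 170.4 at T2-4, 350.4 and 318 at T4-6, 219.6 and 314 at T6-8, and 220.3 and 224 at T8-10, with 87.3 and 81.5 in asynchronous cells. HIST1H3B and HIST1H3C had their lowest libraries at T0-2 and their highest at T4-6.

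**Figure D1:**
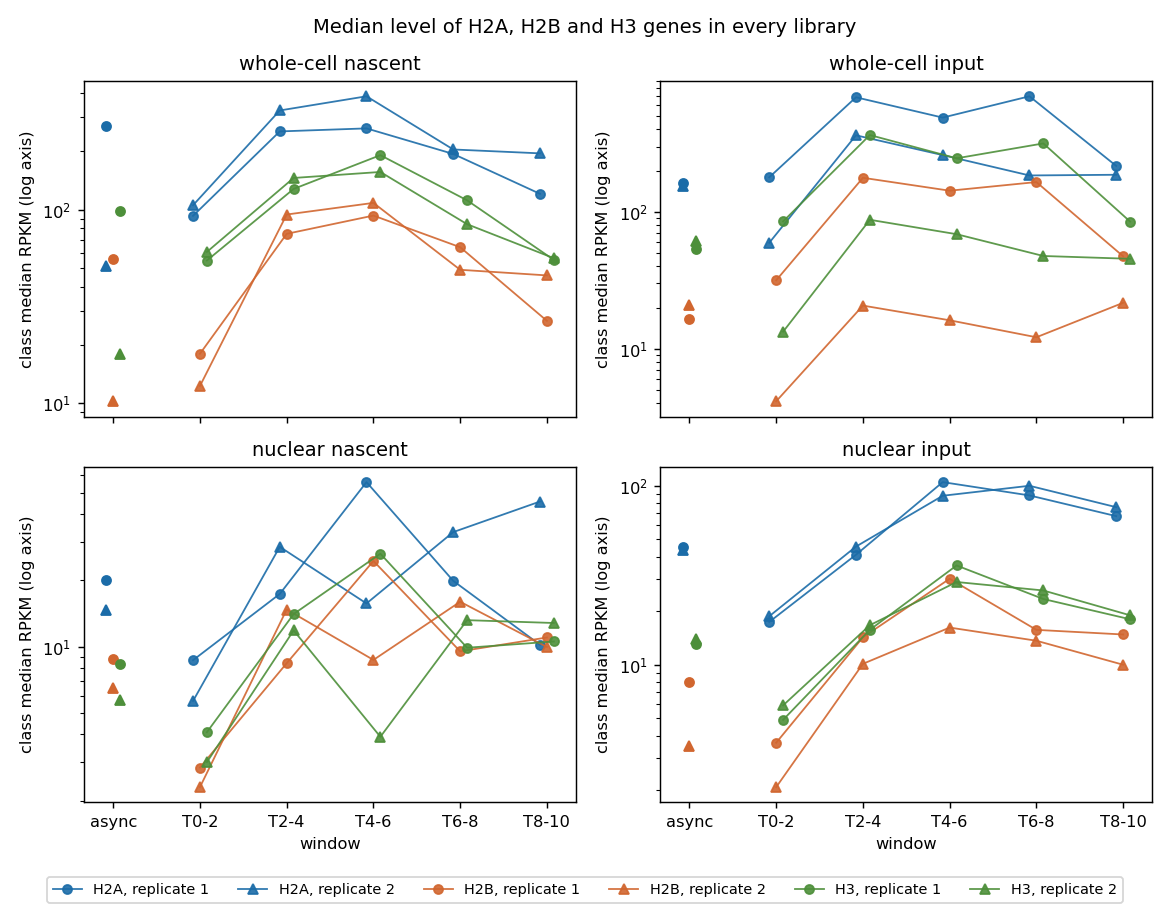
Median RPKM of the 11 H2A, 15 H2B and 8 H3 genes (log axis) in each library of the 4 fraction tables, by window; circles are replicate 1 and triangles replicate 2, lines join windows of 1 replicate number, and asynchronous libraries are unjoined. Among the windows, the mean of the library medians is lowest at T0-2 in every class and table but H3 in whole-cell nascent RNA. There it is 57.5 at T0-2 and 55.6 at T8-10. In whole-cell nascent RNA 1 asynchronous library lies below both T0-2 libraries in each class. In whole-cell input 1 T0-2 library lies above both asynchronous ones in each class. In nuclear nascent RNA replicate 1 is highest at T4-6 where replicate 2 dips.

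A test among the 5 windows (moderated F, limma, Benjamini-Hochberg adjusted over all genes tested) called 9 of the 33 genes tested in nuclear input RNA, where 0.218% of all 9633 genes were called. They were HIST1H2AB, HIST1H2AD, HIST1H2AE, HIST1H2AH, HIST1H2BF, HIST1H2BM, HIST1H3C, HIST1H3H and HIST2H3D, and 28 of 33 had an unadjusted p under 0.05. No gene was called among windows in whole-cell nascent, whole-cell input or nuclear nascent RNA, where 0.00%, 0.00% and 0.0204% of all genes were called and 7, 2 and 14 of 34 had an unadjusted p under 0.05. The count was 5 without a minimum level and 0 with quantile normalization, and it fell to 0 when any 1 asynchronous, T0-2, T4-6, T6-8 or T8-10 nuclear input library was left out. Fewer cells in S phase and less histone RNA per cell cannot be told apart in these bulk samples, here and in every comparison below.

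T4-6 was set against T0-2 because nuclear input levels were highest there, a choice made after the levels were seen that the p-values do not allow for. In nuclear input RNA 16 of 33 genes rose (6 of 11 H2A, 5 of 14 H2B, 5 of 8 H3; limma, adjusted p under 0.05), while 0.270% of all genes did. The class medians of the log2 difference, on log2(RPKM + 0.25), were 2.55 for H2A, 2.14 for H2B and 2.34 for H3, against 0.07 over all genes. Differences between classes were not tested. HIST1H2AB rose by 3.38 ± 0.28 (SE, adjusted p = 0.00305), and HIST1H2AE, HIST1H2AD and HIST1H2AH by 3.34 ± 0.32, 2.92 ± 0.29 and 2.62 ± 0.29. The H2B genes HIST1H2BE, HIST1H2BM, HIST1H2BG and HIST1H2BF rose by 3.82 ± 0.46, 3.81 ± 0.33, 3.67 ± 0.47 and 2.87 ± 0.28, with adjusted p from 0.00305 to 0.0172. Among H3 genes, HIST1H3H, HIST2H3D, HIST1H3C and HIST1H3A rose by 3.23 ± 0.28, 3.13 ± 0.26, 2.81 ± 0.27 and 2.68 ± 0.33, with adjusted p from 0.00305 to 0.014. In 32 of 33 genes both T4-6 libraries were above both T0-2 libraries, as in 16.4% of all genes. The exception was HIST1H2BN, at 0.55 and 0.40 RPKM at T0-2 and 0.87 and 0.50 at T4-6. Without the T4-6 replicate 1 library 0 genes were called, and without T0-2 replicate 2 the count was 8. Quantile normalization gave 9.

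The other tables moved the same way without a call. In whole-cell nascent RNA the median difference of T4-6 from T0-2 was 1.84, and both T4-6 libraries lay above both T0-2 libraries in 32 of 34 genes, as in 20.0% of all genes. HIST1H2AE was at 259 and 245 RPKM at T0-2, 886 and 1288 at T2-4, 1171 and 1799 at T4-6, 1069 and 887 at T6-8, and 479 and 868 at T8-10 there. HIST1H2BB, an H2B gene, was at 18.2 and 9.48 RPKM at T0-2, 145 and 141 at T2-4, 164 and 188 at T4-6, 133 and 92.1 at T6-8, and 67.0 and 74.2 at T8-10, and HIST1H3C at 302 and 292 RPKM at T0-2, 713 and 1108 at T2-4, 1119.6 and 1719 at T4-6, 692 and 576 at T6-8, and 386 and 630.3 at T8-10. In each of these 3 genes the T4-6 libraries were above the T0-2 libraries. The smallest adjusted p was 0.26, for HIST1H2BB (3.71 ± 0.65), with 0 of 34 genes called (0.00% of all genes), although 26 had an unadjusted p under 0.05. Whole-cell input gave 0 calls (0.00% of all genes), 4 unadjusted p under 0.05, a median of 1.58 and 14 of 34 genes without overlap, as in 9.92% of all genes. Nuclear nascent RNA gave 0 calls (0.0102% of all genes were called, 0.00% higher), 25 unadjusted p under 0.05, a median of 1.95 and 28 of 34 without overlap, as in 20.1% of all genes. Without 1 asynchronous whole-cell nascent library, either one, 1 gene was called in whole-cell nascent RNA.

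Replicates of whole-cell input differed in level. HIST1H3B in whole-cell input was at 1155 and 373 RPKM at T0-2, 3467 and 1253 at T2-4, 2972 and 1197 at T4-6, 3924 and 1021 at T6-8, and 1494 and 1134 at T8-10, and HIST1H2BG at 182 and 21.6 RPKM at T0-2, 1131 and 151 at T2-4, 911 and 181 at T4-6, 1073 and 165 at T6-8, and 317 and 157 at T8-10. Every replicate 1 library of HIST1H2BG was above the replicate 2 library of its window. Taken within a replicate number, 34 of 34 genes were higher at T4-6 than at T0-2 in both numbers, with medians of 1.45 and 1.88. HIST1H3D, an H3 gene, did not follow its number and was at 8.73 and 9.61 RPKM at T0-2, 35.2 and 34.8 at T2-4, 20.2 and 21.1 at T4-6, 28.7 and 24.3 at T6-8, and 9.45 and 20.3 at T8-10, with 3.50 and 3.77 in asynchronous cells. Replicate numbers also set nuclear nascent RNA apart: HIST1H2AE was at 23.5 and 24.3 RPKM at T0-2, 80.7 and 159 at T2-4, 279 and 88.5 at T4-6, 116 and 176 at T6-8, and 129 and 219.7 at T8-10 there, with its highest value at T4-6 in replicate 1 and at T8-10 in replicate 2. In replicate 1 of nuclear nascent RNA 30 of 34 genes were highest at T4-6, and in replicate 2 the number was 0.

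The window of the highest level was T4-6 in both replicate numbers for 21 of 34 genes in whole-cell nascent RNA and for 16 of 34 in nuclear input RNA. In whole-cell input 9 of 34 genes were highest at T2-4 in both numbers. T0-2 was the lowest of the 5 windows in both numbers for 25 genes in whole-cell nascent, 28 in whole-cell input, 29 in nuclear nascent and 29 in nuclear input RNA. In nuclear input replicate 2, 8 of the 15 H2B genes were highest at T6-8.

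By T8-10, 10 of 33 genes were still higher than at T0-2 in nuclear input RNA (3 H2A, 4 H2B and 3 H3), against 0.270% of all genes. HIST1H2AB was higher by 2.63 ± 0.28, HIST1H2BM by 2.73 ± 0.33, HIST1H3H by 2.75 ± 0.28 and HIST2H3D by 2.33 ± 0.26 (limma, adjusted p = 0.0143, 0.0143, 0.0143 and 0.0143). The 10 calls fell to 0 when either T0-2 or either T8-10 library was left out. The other 3 tables gave 0 calls (0.00%, 0.00% and 0.112% of all genes rose), with 3, 1 and 20 unadjusted p under 0.05 in whole-cell nascent, whole-cell input and nuclear nascent RNA. Without nuclear nascent T8-10 replicate 1, 5 genes were called there. Between T4-6 and T8-10 no gene was called in any table (0.00% of all genes in each), with 5, 0, 0 and 8 unadjusted p under 0.05 in whole-cell nascent, whole-cell input, nuclear nascent and nuclear input RNA. The whole-cell nascent median was -1.18, and both T8-10 libraries were below both T4-6 libraries in 31 of 34 genes, as in 13.3% of all genes. The nuclear input median was -0.54, with 22 of 33 genes lower without overlap, as in 8.96% of all genes. In the other tables the replicate numbers differed. The nuclear nascent median was -0.31, with -1.34 within replicate 1 and 0.58 within replicate 2. The whole-cell input median was -0.59, with -1.07 within replicate 1 and -0.07 within replicate 2. These contrasts share windows, so they are not independent of each other.

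The mean of the 5 windows was also set against asynchronous cells. In nuclear input RNA the difference was positive in 31 of 33 genes, with a median of 0.56. It passed the test as higher (limma, adjusted p under 0.05) in 4 of 33 (1 H2A, 0 H2B, 3 H3), as in 1.96% of all genes, while 4.57% were called in either direction. HIST1H3A, an H3 gene, was at 4.67 and 4.33 RPKM in asynchronous cells and 4.74 and 3.29 RPKM at T0-2, 12.1 and 14.6 at T2-4, 35.5 and 20.0 at T4-6, 15.7 and 22.1 at T6-8, and 16.8 and 14.3 at T8-10. Its T0-2 libraries were near the asynchronous level and all later windows above it, and the difference was 1.51 ± 0.25 (limma, adjusted p = 0.016). HIST1H3D was at 2.57 and 1.62 RPKM in asynchronous cells and 3.72 and 6.41 RPKM at T0-2, 13.3 and 15.1 at T2-4, 13.6 and 12.4 at T4-6, 4.94 and 5.93 at T6-8, and 7.11 and 5.45 at T8-10, above the asynchronous libraries in every window (adjusted p = 0.00895). HIST1H3C differed by 0.99 ± 0.21 and HIST1H2AC, the H2A gene of a long model, by 0.93 ± 0.20 (adjusted p = 0.0385 and 0.0384). Of H2B genes, HIST1H2BJ had the smallest p, with 1.30 ± 0.36 and an adjusted p of 0.0808. The 4 calls fell to 0 without either asynchronous library, and to 2 without either T0-2, T4-6 or T6-8 library, T2-4 replicate 2 or T8-10 replicate 2. In whole-cell nascent RNA 0 of 34 genes were called (0.406% of all genes), with 9 unadjusted p under 0.05 and a median of 0.85. There the 2 asynchronous libraries stood far apart, with medians over the 34 genes of 103 and 18.0 RPKM. Within replicate 1 the median difference was -0.39 and within replicate 2 it was 2.19. Whole-cell input and nuclear nascent RNA gave 0 calls (0.0305% and 4.50% of all genes), with 1 and 3 unadjusted p under 0.05. The whole-cell input median was 0.58, but the replicate numbers went opposite ways. It was 1.61 within replicate 1, with 34 of 34 genes positive, and -0.38 within replicate 2, with 11 of 34 positive. The nuclear nascent median was 0.25, with 0.06 within replicate 1 and 0.48 within replicate 2. One gene was called without whole-cell nascent asynchronous replicate 1, and 1 in nuclear nascent RNA without T4-6 replicate 2.

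In cells with the control gapmer, sampled from S0 to S6, median histone levels were higher at each later point. The median over the 34 genes was 8.73 and 14.1 RPKM at S0, 14.8 and 23.0 at S2, 36.2 and 83.7 at S4, and 75.6 and 139.9 at S6. Replicate 2 was above replicate 1 at each point. HIST1H2BG was at 2.81 and 5.28 RPKM at S0, 24.3 and 32.8 at S2, 72.5 and 260.3 at S4, and 218 and 502 at S6. HIST1H2BD, an H2B gene with a long model, was at 1.91 and 3.85 RPKM at S0, 6.29 and 6.26 at S2, 8.92 and 15.3 at S4, and 24.9 and 24.1 at S6. HIST1H2AD, an H2A gene, was at 14.3 and 22.5 RPKM at S0, 89.7 and 55.0 at S2, 158 and 237 at S4, and 365 and 451 at S6. In these 3 genes both S6 libraries were above both S0 libraries, with the widest separation in HIST1H2BG. HIST1H2AH was at 75.7 and 107 RPKM at S0, 301 and 184 at S2, 391 and 538 at S4, and 986 and 881 at S6. HIST1H3H was at 12.6 and 18.7 RPKM at S0, 33.7 and 39.1 at S2, 74.5 and 167 at S4, and 172 and 266 at S6, and HIST1H3B at 351 and 543 RPKM at S0, 472 and 734 at S2, 969 and 1530.1 at S4, and 716 and 2237 at S6. HIST1H3B was lower at S6 than at S4 in replicate 1, where 4 of the 8 H3 genes were higher at S6 than at S4.

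**Figure D2:**
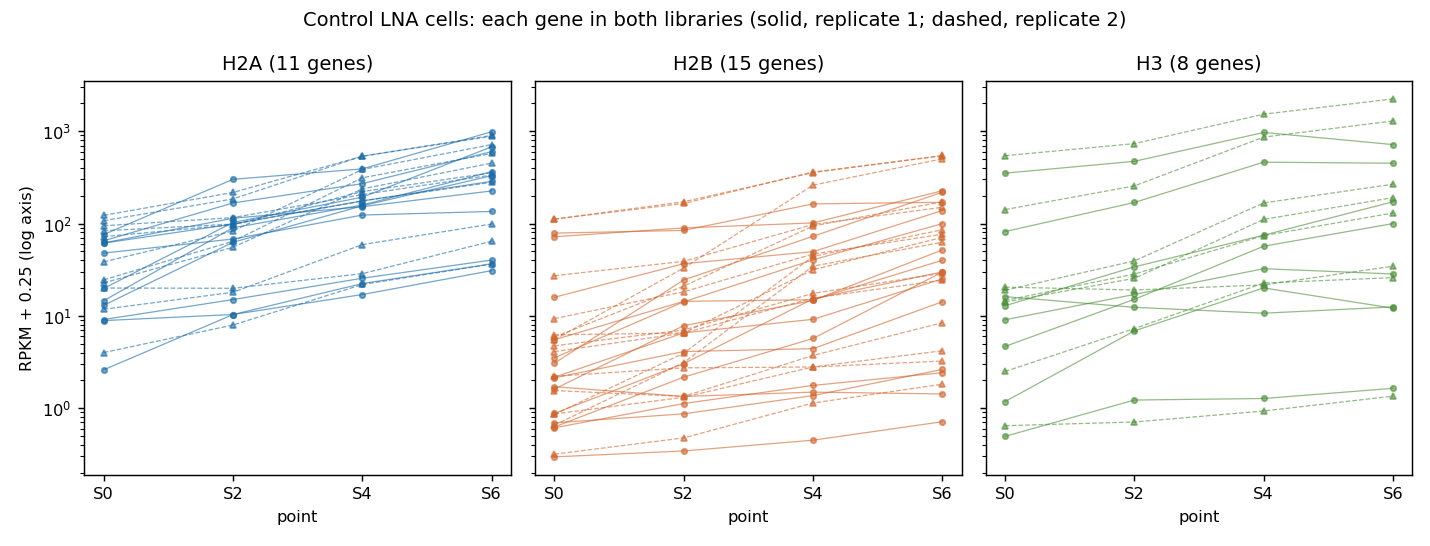
RPKM + 0.25 (log axis) of each H2A, H2B and H3 gene in control gapmer cells at S0, S2, S4 and S6; solid lines join replicate 1 and dashed lines replicate 2. In 32 of 34 genes both S6 points lie above both S0 points, and the 2 exceptions are HIST1H3E and HIST1H2BN.

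All 34 genes had a positive S6 minus S0 difference, with class medians of 3.04 for H2A, 2.79 for H2B and 2.61 for H3, against 0.05 over all genes. Both S6 libraries were above both S0 libraries in 32 of 34 genes (11 H2A, 14 H2B, 7 H3), as in 25.7% of all genes. The exceptions were HIST1H3E, at 15.9 and 20.2 RPKM at S0, 12.1 and 18.8 at S2, 10.4 and 21.4 at S4, and 12.2 and 34.3 at S6, and HIST1H2BN, at 1.46 and 1.97 RPKM at S0, 1.09 and 2.48 at S2, 1.24 and 2.54 at S4, and 1.18 and 2.99 at S6. Only HIST1H2BG and HIST1H2BD passed the test (limma), with differences of 6.33 ± 1.04 and 3.06 ± 0.50 and an adjusted p of 0.0479 each, while 0.0741% of all genes rose. The count was 0 with a pseudocount of 0.1 or 1, without a minimum level or with quantile normalization. HIST1H2AD differed by 4.48 ± 0.80 (adjusted p = 0.0592) and HIST1H3H by 3.78 ± 0.71 (adjusted p = 0.0616). In all, 32 of 34 had an unadjusted p under 0.05. The spread in this fit includes the LINC00704 knockdown libraries of the same table. Without the 2 that stood apart, 23 genes rose (9 H2A, 9 H2B, 5 H3), against 1.18% of all genes called. Those 2 were picked on the levels of these same 34 genes, so leaving them out favours calls among these genes. Counts without them are therefore not a separate test, and the share over all genes is not a fair comparison for them. The same 8 control libraries gave 21 in the LUCAT1 table and 20 in the MIAT table, where 0.871% and 0.997% of all genes were called. Leaving out either LINC00704 knockdown S4 library gave 20, either S2 library 11, and any other library 0. A test among the 4 control points called 0 genes (0.00% of all genes), with 32 unadjusted p under 0.05, and 16 without the 2 libraries that stood apart.

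LINC00704 knockdown moved no histone gene past the test in synchronised cells. Over the 4 points 0 of 34 genes were called (0.0212% of all genes), 1 had an unadjusted p under 0.05 and the median difference was -0.21. Without the 2 libraries that stood apart the median was -0.07. The median was -0.10 at S0 and -0.12 at S6. At S2 it was 0.81, and both knockdown libraries, 1 of them standing apart, were above both controls in 22 of 34 genes, as in 23.9% of all genes. At S4 it was -1.26, and both knockdown libraries, again 1 of them standing apart, were below both controls in 12 of 34 genes, as in 11.7% of all genes. The summed level of the G1/S list was 118 RPKM in the S2 library that stood apart and 149 in the S4 one. It was 141 to 189.9 in the controls and 124 to 159 in the other LINC00704 knockdown libraries. The part of cell cycle position in these values was not tested. At S6 0 genes were called (0.00% of all genes) and 0 had an unadjusted p under 0.05. HIST1H2AE was at 409 and 607 RPKM after the knockdown and 677 and 715 in controls. HIST1H3B was at 1342 and 1724 RPKM, within the control values of 716 and 2237.

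LUCAT1 knockdown lowered 1 of the 34 genes over the 4 points. HIST2H2AB, an H2A gene of the smaller cluster on chromosome 1 whose promoter is printed above, was at 61.0 and 83.2 RPKM at S0, 98.5 and 98.3 at S2, 176 and 176 at S4, and 286 and 279 at S6 in controls. After the knockdown it was at 27.4 and 34.0 RPKM at S0, 50.01 and 53.8 at S2, 76.9 and 102 at S4, and 88.8 and 152 at S6, below both control libraries at each point. The difference was -1.10 ± 0.16 (limma, adjusted p = 0.00144). Of all 9870 genes 8.12% fell and 27.2% were called, so 1 of 34 is a smaller share than the background. The median over the 34 genes was -0.25, against 0.11 over all genes, and 4 had an unadjusted p under 0.05. HIST1H2BD had an adjusted p of 0.0631 with -0.47 ± 0.18. The count was 2 without Control S0 replicate 1, Control S4 replicate 1, or 1 LUCAT1 knockdown library of S0, S2 or S4.

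Most of the LUCAT1 difference lay at S6. Class medians at S6 were -0.82 for H2A, -1.28 for H2B and -1.33 for H3, while the median over the 34 genes was -0.20 at S0, 0.14 at S2 and -0.02 at S4. HIST1H2AD was at 188 and 319.7 RPKM in knockdown and 365 and 451 in control cells at S6. HIST1H2BG was at 111 and 145 against 218 and 502 RPKM. HIST1H3H was at 61.4 and 118 against 172 and 266 RPKM. Both knockdown libraries were below both controls in these 3 genes and in 27 of 34 (9 H2A, 13 H2B, 5 H3), as in 13.7% of all genes. None was called at S6 (0.00% of all genes fell), 19 had an unadjusted p under 0.05, and the smallest adjusted p was 0.274, for HIST2H2AB (-1.28 ± 0.32). A test of whether the knockdown difference changed among points called 0 genes for LINC00704, LUCAT1 or MIAT (0.00% of all genes each), with 2, 1 and 8 unadjusted p under 0.05.

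MIAT knockdown lowered 7 of 34 genes over the 4 points (3 H2A, 3 H2B, 1 H3), against 2.79% of all genes that fell. The log2 difference was -1.05 ± 0.26 (SE) for HIST1H2AJ, -1.002 ± 0.22 for HIST1H2AH and -0.98 ± 0.19 for HIST2H2AB. It was -1.12 ± 0.27 for HIST1H2BL, -1.11 ± 0.31 for HIST1H2BE and -1.01 ± 0.22 for HIST1H2BD, all H2B genes, and -0.59 ± 0.16 for HIST1H3J, an H3 gene of low level. Adjusted p (limma) ran from 0.00907 for HIST2H2AB to 0.047 for HIST1H2BE. HIST2H2AB was at 25.8 and 47.6 RPKM at S0, 57.7 and 66.8 at S2, 93.6 and 132 at S4, and 67.4 and 135 at S6 after the knockdown, below both controls at each point. The median over the 34 genes was -0.74, and 21 had an unadjusted p under 0.05. With quantile normalization 3 genes fell. The count was 13 without 1 MIAT knockdown S4 library and 4 without the other, 2 without Control S0 replicate 2 or 1 MIAT knockdown library of S0 or S2, 3 without Control S2 replicate 1 or Control S6 replicate 2, and 4 without Control S2 replicate 2.

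The MIAT medians were most negative at S6, although the change among points passed no test for any gene. Medians over the 34 genes were -0.47 at S0, -0.23 at S2, -0.23 at S4 and -1.94 at S6, and the S6 class medians were -1.95 for H2A, -2.48 for H2B and -1.19 for H3. HIST1H2AE was at 75.1 and 198 RPKM in knockdown and 677 and 715 in control cells at S6. HIST1H2AD was at 52.8 and 94.5 against 365 and 451 RPKM. HIST1H2BE was at 4.28 and 7.96 against 51.6 and 70.7 RPKM. In these 3 genes the groups were well apart, with replicate 2 above replicate 1 in the knockdown. At S4 the same 3 genes overlapped between groups, and HIST1H2AE was at 153 and 363 against 193 and 385 RPKM. The H3 genes spread more between knockdown libraries. HIST1H3C was at 119 and 827 against 449 and 1291 RPKM, and HIST1H3B at 307 and 1136 against 716 and 2237, both with overlap.

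**Figure D3:**
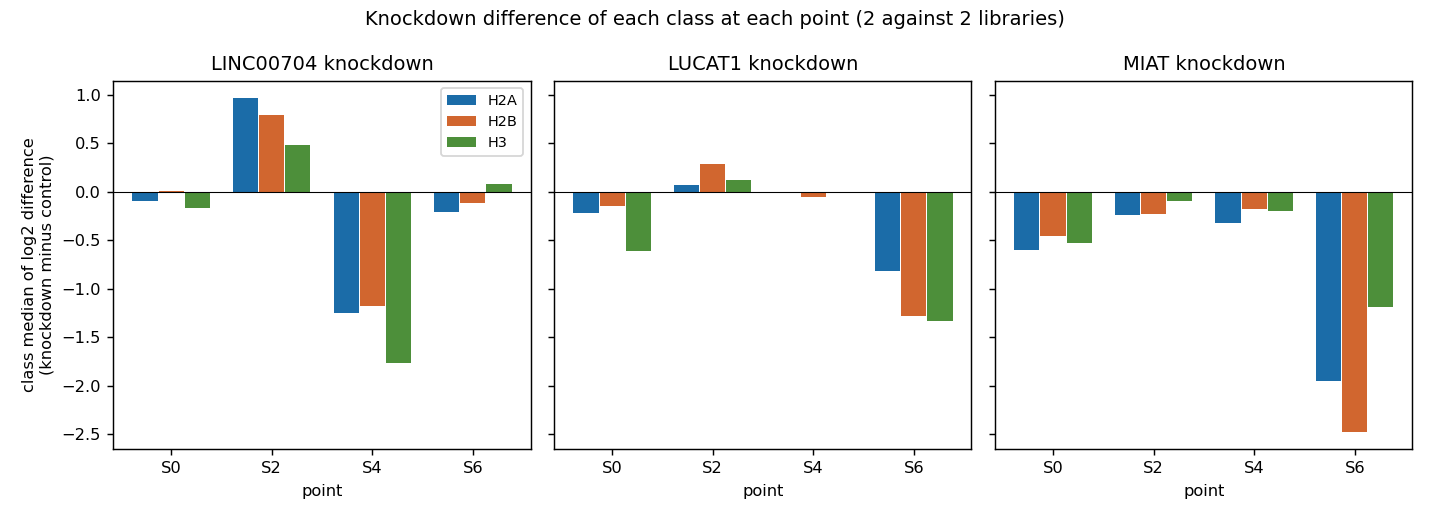
Class median of the log2 difference, knockdown minus control gapmer, of H2A, H2B and H3 genes at S0, S2, S4 and S6 for each target (2 against 2 libraries per bar; the control libraries are the same in all 3 panels). MIAT and LUCAT1 medians are most negative at S6 (-1.94 and -1.16 over the 34 genes), and the LINC00704 bars at S2 and S4 each include 1 library that stood apart.

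At S6 alone, a comparison chosen after the point medians were seen, 9 of 34 genes fell after MIAT knockdown (5 of 11 H2A, 4 of 15 H2B, 0 of 8 H3), while 0.147% of all 9528 genes fell, 14 in number. With quantile normalization 0 genes were called, and with a minimum of 1 RPKM 4 were. The log2 difference was -3.31 ± 0.61 for HIST1H2BE (limma, adjusted p = 0.0258), -2.86 ± 0.63 for HIST1H2BF, -2.54 ± 0.54 for HIST1H2BL and -2.48 ± 0.43 for HIST1H2BD. It was -2.52 ± 0.50 for HIST1H2AD, -2.51 ± 0.53 for HIST1H2AE, -2.496 ± 0.53 for HIST1H2AJ and -2.17 ± 0.44 for HIST1H2AH (adjusted p from 0.0308 to 0.0409). HIST2H3D had the smallest p of the H3 genes, with -2.14 ± 0.69 and an adjusted p of 0.186. The difference between classes was not tested. Both knockdown libraries were below both controls in 25 of 34 genes (11 H2A, 11 H2B, 3 H3), as in 22.6% of all genes, and 26 had an unadjusted p under 0.05. The count was 0 without either Control S6 library or MIAT knockdown S6 replicate 1, and 3 without MIAT knockdown S6 replicate 2. It was 2 without either Control S0 library, 3 without either Control S2 library and 4 without either MIAT knockdown S0 library. The LINC00704, LUCAT1 and MIAT comparisons share their 8 control libraries, so a high S6 control level enters all of them.

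In asynchronous cells MIAT knockdown lowered 19 of the 33 genes tested. All 11 H2A genes fell, with 2 of 15 H2B genes and 6 of the 7 H3 genes tested (limma, adjusted p under 0.05), while 31.1% of all 9200 genes fell and 43.7% were called. With quantile normalization 5 genes fell and 1 rose. Class medians were -0.80 for H2A, -0.39 for H2B and -0.79 for H3, against -0.12 over all genes. HIST2H2AB was at 302 and 287 RPKM in controls and 104, 142 and 127 after the knockdown. HIST1H2AB was at 389 and 339.6 in controls and 150.4, 203 and 203 RPKM after the knockdown. HIST1H2AH was at 572 and 558 in controls and 236, 332 and 322 RPKM after the knockdown. In each of the 11 H2A genes all 3 knockdown libraries were below both controls. HIST2H2AB differed by -1.26 ± 0.15 (adjusted p = 0.00145), HIST1H2AB by -0.98 ± 0.16, HIST1H2AH by -0.95 ± 0.16 and HIST1H2AD by -0.87 ± 0.16. Of H3 genes, HIST2H3D was at 551 and 576 RPKM in controls and 213, 233 and 271 after the knockdown. HIST2H3D, HIST1H3H, HIST1H3C and HIST1H3A differed by -1.24 ± 0.13, -1.01 ± 0.16, -0.86 ± 0.16 and -0.79 ± 0.14 (adjusted p from 0.00102 to 0.00617). HIST1H3E, at 32.6 and 32.7 in controls and 23.7, 29.7 and 24.5 RPKM after the knockdown, was below the controls without a call (adjusted p = 0.0716).

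After MIAT knockdown the median difference was smaller for the H2B than for the H2A genes (-0.39 and -0.80), a class difference that was not tested. HIST1H2BM, called with -0.87 ± 0.13 (adjusted p = 0.00295), was at 33.9 and 31.3 RPKM in controls and 15.8, 20.0 and 17.8 after the knockdown. HIST1H2BO, called with -0.72 ± 0.17 (adjusted p = 0.0155), was at 352 and 354 in controls and 172, 259 and 221 RPKM after the knockdown. HIST1H2BF, at 84.1 and 95.2 in controls and 51.8, 88.4 and 76.8 RPKM after the knockdown, was not called, and 1 knockdown library was above 1 control. HIST3H2BB, an H2B gene of the HIST3 cluster, was at 4.40 and 3.46 in controls and 2.96, 4.70 and 3.97 RPKM after the knockdown, with overlap and a difference of -0.03 ± 0.19. Without overlap were 11 of 11 H2A, 9 of 15 H2B and 7 of 7 H3 genes, as were 44.8% of all genes. The mean log2 level of H2B minus that of H2A was -2.67 and -2.73 in controls and -2.37, -2.25 and -2.31 in the knockdown, so the gap between the classes was smaller in each knockdown library. The count of 19 was 12 without control replicate 1. At a false discovery rate under 0.05 in the authors' deposited table, genes that were lower numbered 22 of 34 (11 H2A, 5 H2B, 6 H3), as were 30.0% of its 15044 genes.

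**Figure D4:**
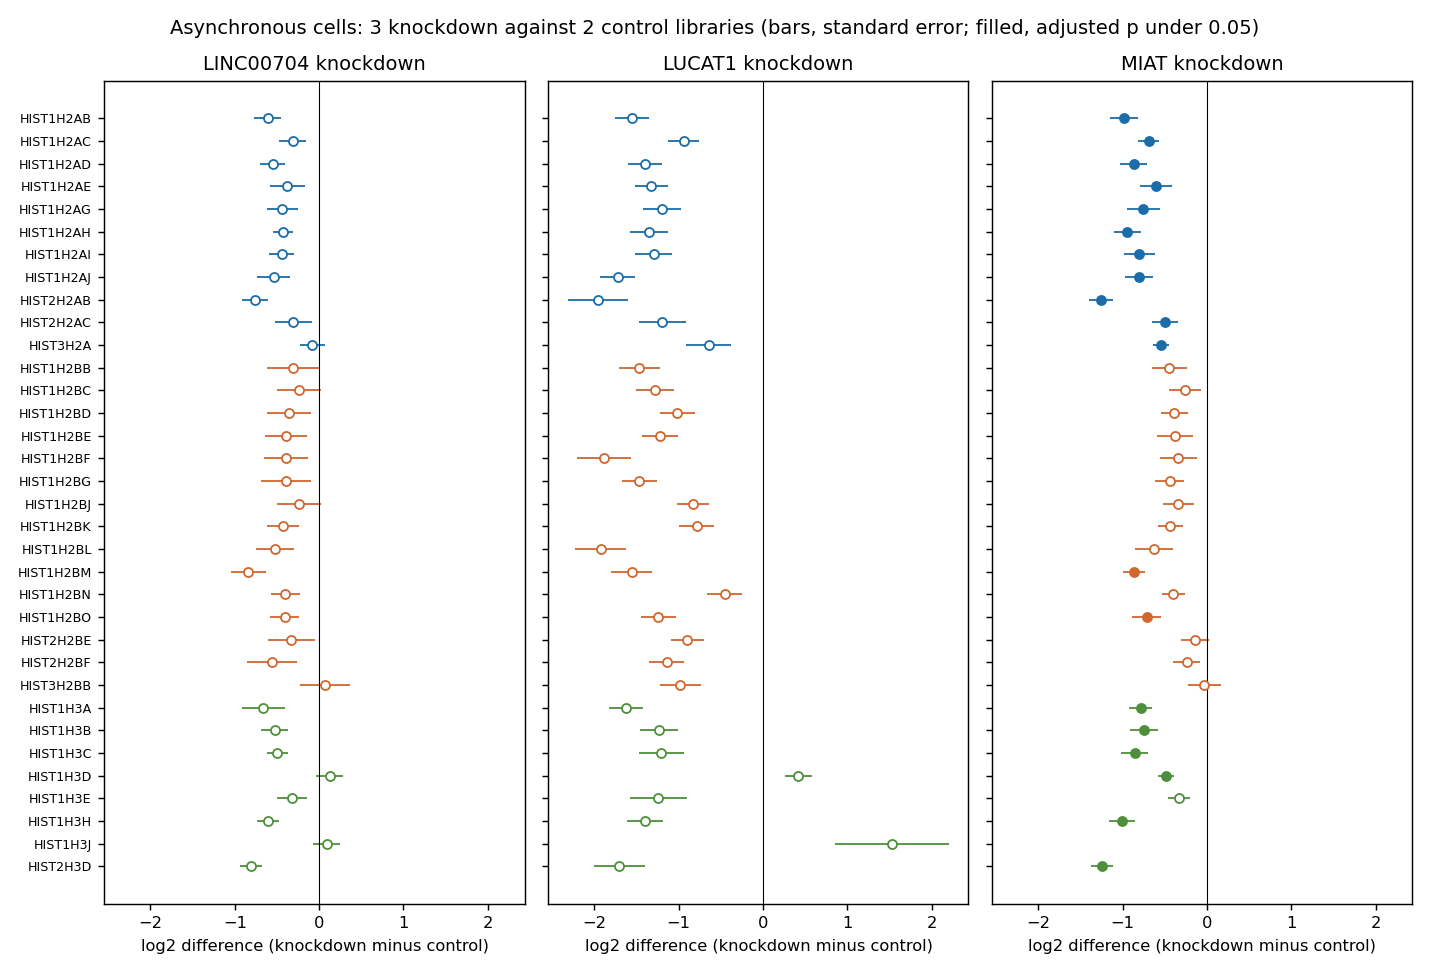
Log2 difference, knockdown minus control gapmer, of each histone gene in asynchronous cells (3 knockdown against 2 control libraries; bars are the standard error; filled points have an adjusted p under 0.05). All 11 H2A points are filled for MIAT and none of the points is filled for LINC00704 or LUCAT1, although the LUCAT1 differences are larger.

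LUCAT1 knockdown gave larger differences in asynchronous cells and no call. The class medians were -1.32 for H2A, -1.22 for H2B and -1.24 for H3, against -0.10 over all genes. HIST1H2AJ was at 154 and 148 RPKM in controls and 55.4, 41.0 and 41.3 after the knockdown. HIST1H2BG was at 171 and 189.5 in controls and 66.9, 74.4 and 54.6 RPKM after the knockdown. HIST1H3A was at 71.0 and 79.8 in controls and 28.0, 24.0 and 21.0 RPKM after the knockdown. All 3 knockdown libraries were well below both controls in these genes, and in 32 of 34 genes they were below without overlap (11 H2A, 15 H2B, 6 H3), as in 31.5% of all genes. HIST1H3D, at 5.48 and 5.20 in controls and 6.91, 7.34 and 7.44 RPKM after the knockdown, was higher in each knockdown library, with a difference of 0.42 ± 0.16 and an adjusted p of 0.214. HIST1H3J was at 0.40 and 0.51 in controls and 0.49, 3.53 and 2.79 RPKM after the knockdown, with 2 knockdown libraries above the rest. In limma 0 of 34 genes were called (0.209% of all genes, each of them higher) and 32 had an unadjusted p under 0.05. With a pseudocount of 0.1, 3 genes were called. The smallest adjusted p was 0.0511, for HIST1H2AJ (-1.72 ± 0.21), and HIST1H3A and HIST1H2BG differed by -1.63 ± 0.20 and -1.47 ± 0.21 (adjusted p = 0.0522 and 0.0646). Without LUCAT1 knockdown replicate 1, 33 genes were called. At a false discovery rate under 0.05 in the authors' deposited table, lower genes numbered 31 of 34 (11 H2A, 14 H2B, 6 H3) and 1 was higher, HIST1H3J, while 16.5% of its 16049 genes were lower.

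LINC00704 knockdown in asynchronous cells called 0 of 34 genes (0.0557% of all genes), with 13 unadjusted p under 0.05. Medians were -0.44 for H2A, -0.39 for H2B and -0.51 for H3. HIST2H3D was at 554 and 575 RPKM in controls and 294, 344 and 329.7 after the knockdown. HIST2H2AB was at 304 and 287 in controls and 191, 185 and 149 RPKM after the knockdown. Both were lower in every knockdown library, as were 20 of 34 genes (8 H2A, 6 H2B, 6 H3) and 25.2% of all genes. HIST2H3D had a difference of -0.81 ± 0.13 and an adjusted p of 0.131. HIST2H2AC, an H2A gene with the highest H2A level here, was at 622 and 717 in controls and 419, 532 and 705 RPKM after the knockdown, with overlap. At a false discovery rate under 0.05 in the authors' deposited table, none of the 34 genes was lower (0 of 34), while 1.84% of its genes were. The 3 asynchronous comparisons share their 2 control libraries.

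Among the 26 members with a single RefSeq promoter, 8 H2A genes stood head to head with an H2B gene, with 222 to 247 bases between the starts. Pairs that involve the other members were not looked for. From S0 to S6 in control cells the H2B partner had the larger difference in 6 of 8 pairs. HIST1H2BM differed by 5.84 and its partner HIST1H2AJ by 2.60. For HIST1H2BG and HIST1H2AE, whose shared stretch is printed above, the differences were 6.33 and 4.66. HIST1H2AC with HIST1H2BC (3.50 and 2.68) and HIST2H2AC with HIST2H2BE (3.04 and 2.13) went the other way. HIST3H2A and HIST3H2BB differed by 1.74 and 2.18. From T0-2 to T4-6 in nuclear input RNA neither partner led throughout. The larger difference lay with the H2A gene in the pairs of HIST1H2AD, HIST1H2AG, HIST2H2AC and HIST3H2A. It lay with the H2B gene in those of HIST1H2AC, HIST1H2AE, HIST1H2AI and HIST1H2AJ. After MIAT knockdown in asynchronous cells the H2A partner had the lower value in 7 of 8 pairs, for example -0.87 for HIST1H2AD and -0.34 for HIST1H2BF. The exception was HIST1H2AJ with -0.81 and HIST1H2BM with -0.87. At S6 after MIAT knockdown the H2B partner had the lower value in 7 of 8 pairs, for example -2.52 for HIST1H2AD and -2.86 for HIST1H2BF. HIST2H2AC (-1.78) and HIST2H2BE (-1.22) were the exception there. Partners share a promoter and were not tested against each other. Gene models differ in length within pairs, for example 44449 bp for HIST2H2BE and 390 bp for HIST2H2AC. The pseudocount understates differences of genes at low RPKM. The part of model length in the order of partners was not tested.

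**Figure D5:**
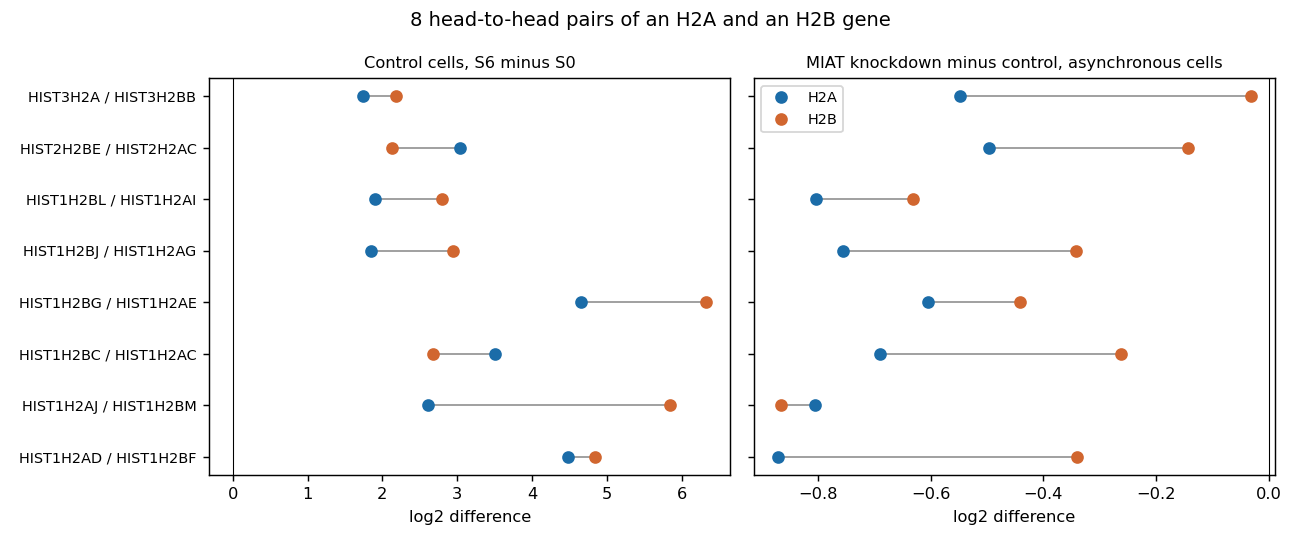
Log2 differences of the H2A (blue) and H2B (orange) gene of each of 8 head-to-head pairs, for S6 minus S0 in control gapmer cells (left) and MIAT knockdown minus control in asynchronous cells (right). The H2B gene lies to the right in 6 of 8 pairs on the left and in 7 of 8 on the right.

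The other replication-dependent histone genes, for H1 and H4, were taken with related lists chosen from textbook roles. In nuclear input RNA 9 of 13 H1 and H4 genes rose from T0-2 to T4-6 (0.270% of all genes did), with a median of 2.23; HIST1H1D, a linker histone, rose by 4.28. From S0 to S6 in controls 1 of 15 rose (0.0741% of all genes), HIST1H4K with 4.24, and the median was 2.46. At S6 after MIAT knockdown 2 of 14 fell (0.147% of all genes), HIST1H4J (-2.87) and HIST1H1A (-2.35). In asynchronous cells 15 of 16 fell and 1 rose after MIAT knockdown, with a median of -0.86. Of all genes 31.1% fell there. Of replication-independent variants, 0 of 7 were called from T0-2 to T4-6 in nuclear input RNA (0.311% of all genes), with a median of 0.25. From S0 to S6 0 of 7 were called (0.0741% of all genes), with a median of 0.26. After MIAT knockdown in asynchronous cells 5 of 9 variants fell (31.1% of all genes), with a median of -0.43, among them H2AFX (-0.81), the variant phosphorylated at DNA breaks.

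Genes that make and process histone mRNA were called in few comparisons. None was called from T0-2 to T4-6 in nuclear input RNA or from S0 to S6 (0.311% and 0.0741% of all genes were called). After LUCAT1 knockdown in synchronised cells 6 of 14 rose, against 19.0% of all genes, with a median of 0.39, among them SLBP (0.77), the stem-loop binding protein. After MIAT knockdown in asynchronous cells 3 of 12 fell, a smaller share than the 31.1% of all genes: SYMPK (-0.47), a scaffold of the cleavage complex, SLBP (-0.35) and CSTF2 (-0.32). Of 6 genes for histone mRNA decay tested after MIAT knockdown in asynchronous cells, UPF1, a helicase, was at -0.61, where 31.1% of all genes fell. Of 7 tested after LUCAT1 knockdown in synchronised cells, UPF1 rose by 0.61, where 19.0% of all genes rose. UPF1 is 1 gene of this list and does not stand for the others. Of chaperones, 5 of 9 fell after MIAT knockdown in asynchronous cells (31.1% of all genes), among them CHAF1A (-0.90), which loads H3 and H4 behind the replication fork.

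Cell cycle genes moved beside the histone genes in some comparisons. After MIAT knockdown in asynchronous cells 10 of 16 G1/S genes fell, with a median of -0.62, led by MCM2 (-1.12), a helicase subunit, and 3 of 12 G2/M genes fell, with a median of -0.41, while 31.1% of all genes fell. After LUCAT1 knockdown in asynchronous cells 0 of 16 G1/S genes were called, with a median of -0.27. Of all genes 0.209% were called there and 0.00% fell. At S6 the G2/M medians were -0.36 after LUCAT1 and -0.98 after MIAT knockdown, with 0 called in each (0.0304% and 1.35% of all genes). In nuclear input RNA 4 of 12 G2/M genes were lower in the windows than in asynchronous cells, against 2.61% of all genes, among them CCNB1 (-1.51), cyclin B. The part of cell cycle position in the histone differences was not tested.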

How the data were processed

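RNA sequencing tables of hTERT-RPE1 cells were used: 10 tables with 111 library columns, which cover 91 of the 96 samples, the other 5 being chromatin samples not used here. The tables hold RPKM values deposited by the authors. The tools named are STAR 2.5.3, featureCounts 1.6.1, edgeR and HOMER 4.10.3, with Bowtie2 2.3.4.3 for 85 samples, and the build is hg38, per the submitters' processing notes, which give no role for each tool. The sources used here give neither the annotation, the strand setting of the fraction tables nor the treatment of reads shared by gene copies. The 3 asynchronous tables also hold the authors' log2 fold changes and p-values with a false discovery rate, per the file headers.

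RPKM values were tested as log2(RPKM + 0.25), which understates differences of low genes, keeping genes that reached 0.5 RPKM in 2 or more libraries of their table. limma 3.58.1 in R 4.3.3 was fitted to all genes of each table with group means and a mean trend, and p-values were adjusted by Benjamini-Hochberg over all genes tested. A gene was called at an adjusted p under 0.05. Whole reads were recovered from the RPKM steps for at least 99.97% of low values (up to 200 reads, within 0.05 reads), which gave the depths; counts were not tested. Of the member values, 2 of 408 in whole-cell nascent and 0 of 170 in each asynchronous table rested on under 10 reads. The procedure was tested on simulated data. Figures used matplotlib 3.10.9 in Python 3.11.15.

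The members, gene lists and tests were chosen with earlier results of these data known. T4-6 against T0-2, T8-10 against T4-6 and each knockdown at S6 were added after the values were seen. Named differences are, per comparison and class, up to 4 called genes with the largest difference, or the gene with the smallest p where none was called; other genes are named for their levels. Alternatives were another pseudocount (0.1 or 1), another minimum (none or 1 RPKM), median scaling, quantile normalization, a replicate block and each library left out. The headers of 18 knockdown columns carry replicate numbers that are not those of the sample titles, so these columns were used as unnumbered libraries.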

Additional observations from a re-analysis of the deposited data

How the results depend on the processing

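Of the class medians recomputed under the alternatives, 1943 moved by less than the spread and 73 by more; of the named gene differences, 2364 kept their direction and side of the threshold, 386 lost a call, 63 gained one and 3 changed sign. Those 3 were HIST1H2AJ in whole-cell nascent RNA, windows against asynchronous cells (from -0.27 without asynchronous replicate 2 to 3.62 without asynchronous replicate 1), and HIST1H2AB in nuclear nascent RNA, T8-10 against T4-6 (0.25 without T4-6 replicate 1, 0.21 without T8-10 replicate 1 and -1.57 without T4-6 replicate 2). With quantile normalization the number of genes called was 1 for windows against asynchronous cells in nuclear nascent RNA, 9 for T8-10 and 7 for T4-6 against T0-2 and 4 among windows there; 9 for T4-6 against T0-2 and 0 among windows in nuclear input RNA; 0 for S6 against S0; 2 for LUCAT1 and 3 for MIAT knockdown over the points, 0 for MIAT at S6 and 6 for MIAT in asynchronous cells. With a pseudocount of 0.1 the counts were 1 for windows against asynchronous cells in nuclear nascent RNA, 0 for S6 against S0 and 3 for asynchronous LUCAT1 knockdown, and with a pseudocount of 1 S6 against S0 gave 0. Without a minimum the count was 5 among windows in nuclear input RNA and 0 for S6 against S0, and a minimum of 1 RPKM gave 4 for MIAT at S6. Median scaling gave 1 for windows against asynchronous cells in nuclear nascent RNA and 3 for LUCAT1 knockdown over the points. For the control points, leaving out the 2 LINC00704 knockdown libraries that stood apart gave 23 genes for S6 against S0. It gave 16 among points. Those 2 libraries were picked on the levels of these same genes. Fits in the LUCAT1 and MIAT tables gave 21 and 20 for S6 against S0 and 17 and 14 among points. The cause of these changes was not tested.

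With each library left out in turn, counts ranged from 0 to 1 in whole-cell nascent RNA (windows against asynchronous cells, and T4-6 against T0-2), from 0 to 1 (windows against asynchronous cells) and 0 to 5 (T8-10 against T0-2) in nuclear nascent RNA, and in nuclear input RNA from 0 to 3 (windows against asynchronous cells), 0 to 9 (T8-10 against T0-2), 0 to 14 (T4-6 against T0-2) and 0 to 8 (among windows). They ranged from 0 to 20 for S6 against S0 (11 without either LINC00704 knockdown S2 library), 0 to 14 among control points, 1 to 2 for LUCAT1 and 2 to 13 for MIAT knockdown over the points, 0 to 12 for MIAT at S6 (11 without Control S4 replicate 1), 0 to 33 for LUCAT1 and 12 to 23 for MIAT knockdown in asynchronous cells. The other counts of calls stayed at 0 in each such fit.

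The replicate number as a block raised counts in nuclear input RNA, to 20 for windows against asynchronous cells, 28 for T4-6 and 27 for T8-10 against T0-2 and 28 among windows. The block gave 2 for windows against asynchronous cells in whole-cell input and in nuclear nascent RNA, 12 for LINC00704, 18 for LUCAT1 and 20 for MIAT knockdown in asynchronous cells, and, fitted on control libraries alone, 32 for S6 against S0 and 28 among points. The labels do not say what a shared number means. Deviations of same-numbered libraries correlated at 0.63 to 0.86 between groups in nuclear input RNA, at -0.56 to 0.94 in whole-cell input, at -0.27 to 0.60 in whole-cell nascent and at -0.31 to 0.40 in nuclear nascent RNA. Among the synchronised knockdowns, the S6 libraries of LUCAT1 and MIAT have the numbers of the controls. With the 8 control libraries they gave 0 for LUCAT1 at S6 with or without the replicate block, and 22 for MIAT at S6 with the block and 12 without it. No paired analysis was possible over the 4 points because the headers of 18 knockdown columns have other numbers than the sample titles.

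Depth limits the members of low level: 7 of 408 values in nuclear input and 15 of 544 in the synchronised MIAT table rested on under 10 reads. With 2 libraries per group, 1 library can end most calls.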
